A study of Homo sapiens with 6 samples.

Results

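The 48 genes described here encode proteins that bind pre-mRNA and set which exons are kept: the SR proteins with TRA2A, TRA2B and RBM39, the heterogeneous nuclear ribonucleoproteins (hnRNPs), the PTBP proteins, and the CELF, MBNL, RBFOX, QKI, NOVA, ELAVL and ESRP families. They were chosen by name, as families of splicing regulators and with earlier results of these data known, out of 20824 genes listed in at least 1 library, and all 48 were found. A549 is an established human lung adenocarcinoma cell line. It was sequenced as 3 libraries carrying a scrambled short hairpin RNA (sh-scramble), which the labels treat as wild type, and 3 libraries with C19orf12 knockdown. C19orf12 encodes a small membrane protein of mitochondria and the endoplasmic reticulum. Both groups are A549 cells carrying a hairpin, and the RNA was captured with oligo-dT beads. Neither the time after hairpin delivery nor the number of hairpin sequences is given in the sources used here. Whether the 3 libraries of a group are separate cultures is not stated; the p-values rest on library-to-library spread alone, and that spread may be technical.

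Splicing joins exons by removing the introns between them, and regulators tilt the choice of splice site. SR proteins carry arginine-serine repeats and mostly promote use of the exons they bind, while many hnRNPs coat the pre-mRNA and often block a site or loop an exon out. PTBP, CELF, MBNL, RBFOX and ESRP proteins differ in level between tissues, and ESRP proteins are known for the epithelial pattern of exons. Many SR and hnRNP genes limit their own level through a transcript form that is degraded. In bulk RNA a change in a gene's level cannot be told apart from a change in the number of cells that express it.

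The 6 libraries held between 10229890 and 10647587 estimated counts each. C19orf12 was at 42.5, 41.1 and 63.3 CPM (counts scaled to library size) in scramble replicates 1 to 3 and at 24.2, 26.4 and 25.2 in the knockdown replicates, a log2 fold change of -0.95 ± 0.20 (SE, n = 3 and 3; edgeR quasi-likelihood test, adjusted p = 0.015). That call did not hold without any 1 of the knockdown libraries (adjusted p between 0.0755 and 0.0908). Scramble replicate 3 stood apart: its log2 CPM correlated across genes with the other 2 scramble libraries at 0.952 and 0.953, while those 2 correlated at 0.991 with each other and at 0.959 to 0.960 with the knockdown libraries. The biological coefficient of variation estimated by edgeR went from 18.9% to 3% when it was left out, so values without that library are given beside the members' results. The 10 epithelial and A549 marker genes summed to 19520 to 22570 CPM in scramble and 27310 to 27860 CPM in knockdown. CDKN2A, which A549 cells lack, was listed in no library.

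With all 6 libraries, 45 of the 48 genes had enough counts to be tested, and 6 of these 45 (13.3%) were higher in the knockdown at a Benjamini-Hochberg adjusted p under 0.05, against 5.89% of all 14812 genes tested. The 6 were SRSF3, SRSF7, TRA2B, HNRNPA2B1, HNRNPM and CELF2. The same edgeR test found 0 lower, against 5.64% of all genes, so that 11.5% of all genes were called in either direction. At an unadjusted p under 0.05, 17 members were higher and 1 lower, where 1802 and 1961 of all 14812 genes were. DESeq2 and limma-voom also called 0 members lower, where they called 928 and 768 of all genes lower. The median log2 fold change of the 45 was 0.30 (33 above 0), against 0.02 for all genes. Without scramble replicate 3 the median was 0.20 for members, against 0.003 for all genes. The 3 knockdown libraries lay above all 3 scramble libraries for 21 members, where 18.4% of all genes did so, and below them for 4, where 18.6% did. CELF2 was tested only because of its counts in the knockdown libraries. MBNL3, NOVA2 and ESRP1 were too low to be tested.

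Without scramble replicate 3 the counts were larger: 27 of 46 members higher and 11 lower, where 49.5% of all genes were called, 25.7% higher and 23.8% lower. All 6 calls made with the full set held in that fit, as did 1707 of the 1708 calls over all genes. Leaving out any 1 of the other 5 libraries took the members called from 6 to between 1 and 3, and CELF2 was called in each of these fits, and TRA2B and HNRNPA2B1 only in the fit without scramble replicate 1. An alternative chosen after the data were seen, a correction for transcript GC content and length in each library, called 19 of 44 members higher and 6 lower, where 34.1% of all genes were called, 15.4% higher and 18.7% lower. The median log2 fold change was 0.20 for members in this fit, against -0.04 for all genes. There were 25 members called in the same direction both in this fit and without scramble replicate 3. The matching count over all genes was not made, so this number has no background share.

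**Figure D1:**
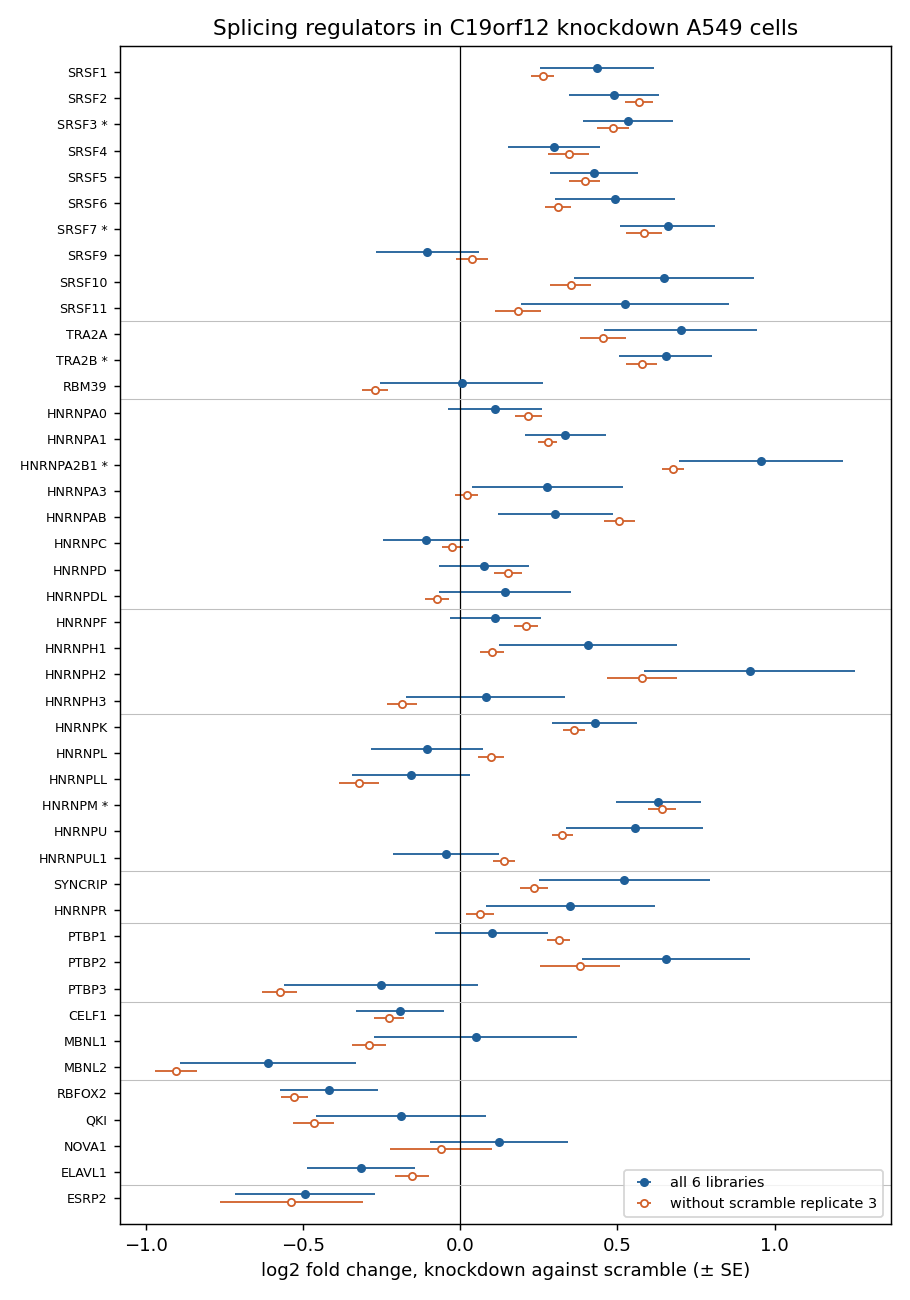
Log2 fold change, knockdown over scramble, of the tested members other than CELF2 (6.26), with all 6 libraries and without scramble replicate 3; lines are standard errors and asterisks mark an adjusted p under 0.05 with all 6. SR proteins lie mostly to the right of 0, and the lines shorten when scramble replicate 3 is left out.

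Per transcript length, these genes spanned a wide range of abundance. In the deposited FPKM values (fragments per kilobase, scaled to library size), 8 members exceeded 100 in scramble cells (HNRNPH1 by the least, at 100.01), 30 were between 10 and 100, 6 between 1 and 10, and 4 below 1. These are means with scramble replicate 3, which moved members near 100. In scramble replicates 1 to 3 HNRNPH1 was at 120, 130 and 49.8 FPKM and SRSF9 at 99.6, 92.1 and 117. HNRNPA1, an abundant nuclear packaging protein that represses exons, had the highest level at 576 ± 61.4 FPKM (SD, n = 3). HNRNPC, which binds uridine runs, followed at 205 ± 11.3 and HNRNPK, which binds cytosine-rich RNA, at 177 ± 22.9. The ranges of these 2 neighbours over the scramble libraries overlapped. Within each scramble library HNRNPC was higher, at 201, 195 and 217 FPKM in replicates 1 to 3 against 197, 182 and 152. HNRNPL was at 141 ± 25.6 and HNRNPA2B1 at 117 ± 46.8, also overlapping. Their order turned with scramble replicate 3: in replicates 1 to 3 HNRNPL was at 127, 125 and 170 FPKM and HNRNPA2B1 at 145, 142 and 62.8. Among SR proteins SRSF9 was highest, at 103 ± 12.6 FPKM, and SRSF10 lowest, at 9.26 ± 3.94. The 4 members below 1 FPKM in scramble cells were ESRP1 (0.387), NOVA2 (0.187), CELF2 (0.0133) and MBNL3 (0.010). In the knockdown HNRNPA2B1 was at 215 ± 8.82 FPKM and stood 3rd in the order, and CELF2 was at 1.27 ± 0.16. Reads of HNRNPA1 and other members with many processed pseudogenes can be shared with those copies, so their levels are less certain.

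**Figure D2:**
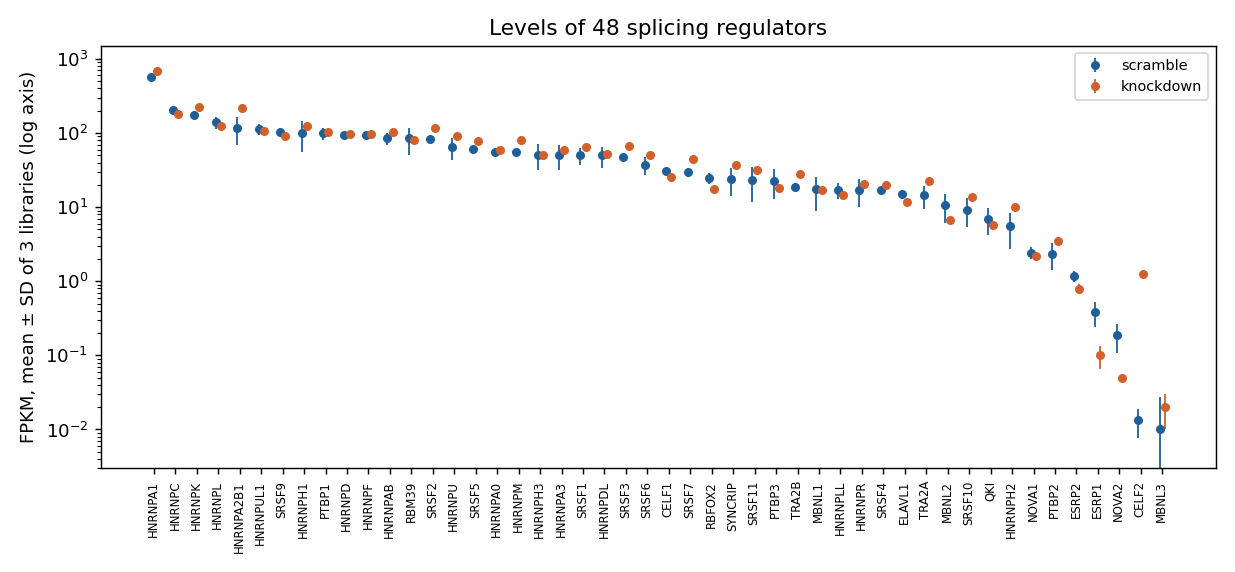
Deposited FPKM (log axis) of the members in order of their scramble mean, with scramble and knockdown means; bars are SD over 3 libraries. Most members lie between 10 and 100 FPKM, and CELF2 is the member whose 2 group means lie farthest apart.

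Of the 10 SR proteins tested, 8 were above all scramble libraries in each knockdown library, where 18.4% of all genes were, and 2 passed the test with all 6 libraries, SRSF3 and SRSF7. The summed level of the 10 was 1093 to 1313 CPM in scramble and 1617 to 1724 CPM in knockdown. Their median log2 fold change was 0.49 with all 6 libraries, 0.35 without scramble replicate 3 and 0.37 with the GC and length correction. Without scramble replicate 3, 9 of 10 were called higher (25.7% of all genes), and with the GC and length correction 8 of 10 (15.4% of all genes). SRSF9 passed in none of these fits, at log2 -0.11 with all 6 libraries and 0.04 without that library, and SRSF11 passed only without that library.

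SRSF3, the smallest SR protein, which also takes part in mRNA export, was at 162, 151 and 142 CPM in the scramble libraries and at 230, 226 and 204 in the knockdown libraries. The groups did not overlap, and the lowest knockdown value was above the highest scramble value. It rose by 0.53 ± 0.14 (SE) on the log2 scale (adjusted p = 0.0416), and by 0.49 without scramble replicate 3. The call held in 6 of 14 alternatives: upper-quartile scaling (adjusted p = 0.0595) and testing without a filter on low counts (adjusted p = 0.0565) were among those that ended it, and adjusted p ranged from 4.0e-08 to 0.230 over all of them. SRSF7, an SR protein with a zinc knuckle, was at 76.1, 74.7 and 63.9 CPM in scramble and at 110.9, 121 and 107 in knockdown. Again each knockdown library was above each scramble library. It rose by 0.66 ± 0.15 on the log2 scale (adjusted p = 0.0219, between 1.4e-08 and 0.158 over the alternatives), and by 0.58 without scramble replicate 3.

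The other SR proteins did not pass with all 6 libraries. SRSF2, which marks nuclear speckles and can switch exons from either side, had a log2 fold change of 0.49 ± 0.14 (adjusted p = 0.0582) and 0.57 without scramble replicate 3, where it passed. The annotated exons of SRSF2 overlap those of MFSD11 on the opposite strand over 36.7% of their bases, and those of SRSF9 overlap GATC over 46.2%. No use of strand in counting is stated, so reads of these pairs cannot be told apart. SRSF1, also known as ASF or SF2, was at log2 0.44, SRSF4 at 0.30, SRSF5 at 0.43, SRSF6 at 0.49, SRSF10 at 0.65 and SRSF11 at 0.52, with adjusted p between 0.0869 and 0.374. Without scramble replicate 3 these 6 were at 0.26, 0.34, 0.40, 0.31, 0.35 and 0.18 in the same order, and all passed. The groups overlapped for SRSF11 and SRSF9 and not for the other 8.

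TRA2B, a serine-arginine splicing activator that recognises GA-rich exons, was at 84.3, 82.0 and 70.4 CPM in scramble and at 125.6, 124 and 122.5 in knockdown. The knockdown values had an SD of 1.58 CPM, and each was above every scramble value. It rose by 0.65 ± 0.15 on the log2 scale (adjusted p = 0.0202, between 1.6e-09 and 0.127 over the alternatives), and by 0.58 without scramble replicate 3. Its paralog TRA2A had a log2 fold change of 0.70 ± 0.24 (adjusted p = 0.101) with groups that did not overlap, and passed at 0.45 without scramble replicate 3. RBM39, a U2AF-related coactivator, was at log2 0.0047 with all 6 libraries and -0.27 without scramble replicate 3, where it passed as lower. Its value with all 6 libraries was near 0, and other scalings also turned its sign.

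Among the hnRNPs of the A/B, C and D types, 1 of 8 passed with all 6 libraries. HNRNPA2B1, which packages pre-mRNA and sorts RNA and microRNA in the cytoplasm, was at 516, 502 and 240.0 CPM in scramble and at 802, 852.5 and 787 in knockdown. Scramble replicate 3 was well below the other 2, and all scramble libraries were below all knockdown libraries. The difference was 0.96 ± 0.26 on the log2 scale with all 6 libraries (adjusted p = 0.0449) and 0.68 without scramble replicate 3, so the size of the rise moved with that library. Adjusted p ranged from 4.3e-13 to 0.155 over the alternatives, and scaling by size factors (RLE) put it at 0.0518. HNRNPA1 was at log2 0.33 (adjusted p = 0.134), with groups that did not overlap, and 0.28 without scramble replicate 3, where it passed. HNRNPAB (0.51), HNRNPA0 (0.22) and HNRNPD (0.15) also passed as higher without that library. HNRNPC, HNRNPA3 and HNRNPDL did not pass in either fit, with log2 fold changes between -0.11 and 0.28 with all 6 libraries.

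HNRNPM, an exon repressor and activator known from epithelial-to-mesenchymal splicing, was at 135.9, 131 and 137.0 CPM in scramble and at 216, 207 and 202 in knockdown. Scramble replicate 3 was close to the other 2 for this gene, and the groups were far apart. It rose by 0.63 ± 0.14 on the log2 scale (adjusted p = 0.0167, between 5.6e-11 and 0.129 over the alternatives) and by 0.64 without scramble replicate 3. HNRNPK, at log2 0.43 (adjusted p = 0.0760), and HNRNPU, a chromatin-associated hnRNP at log2 0.56 ± 0.22 (adjusted p = 0.147), had groups that did not overlap, and both passed without scramble replicate 3. HNRNPL was at -0.11 with all 6 libraries and 0.10 without scramble replicate 3, and passed in neither. HNRNPUL1 went from -0.05 to 0.14 and passed as higher without it. HNRNPLL, the paralog of HNRNPL known for CD45 splicing, was at -0.16 and, without scramble replicate 3, was called lower at -0.32.

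Of the 4 G-run binding hnRNPs of the F/H family, edgeR called 0 with all 6 libraries, DESeq2 called 1 and limma-voom 0. By edgeR 1 was at an unadjusted p under 0.05, where 3763 of all 14812 genes were. HNRNPH2 had a log2 fold change of 0.92 ± 0.34 (adjusted p = 0.118) and HNRNPH1 of 0.41 ± 0.28 (adjusted p = 0.429), both with groups that did not overlap. Without scramble replicate 3 they were called higher at 0.58 and 0.10. HNRNPF was called higher at 0.21 in that fit and HNRNPH3 lower at -0.19.

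**Figure D3:**
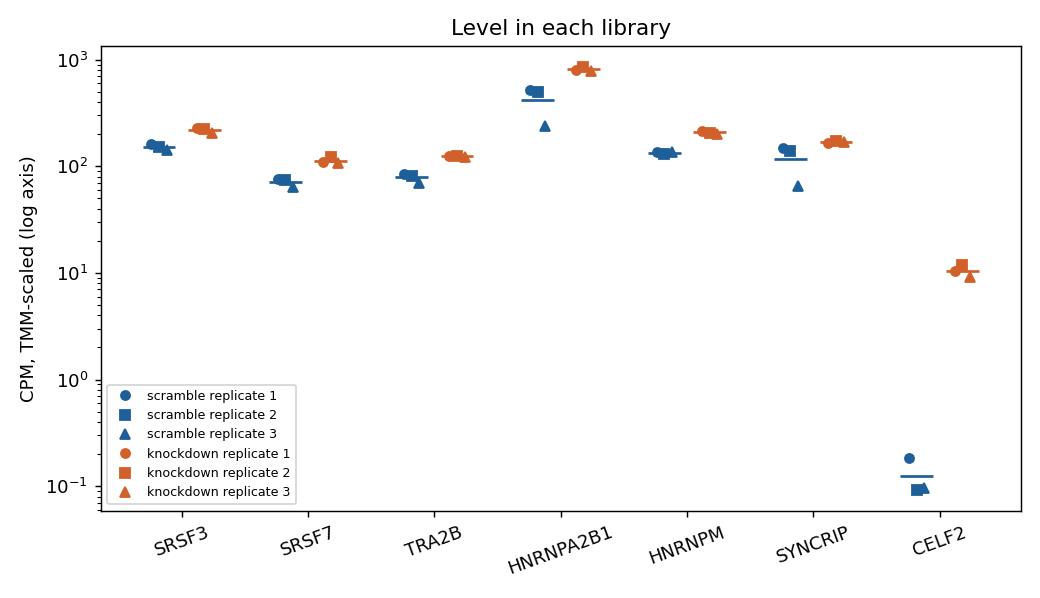
CPM in each of the 6 libraries for SYNCRIP and the 6 members called with all 6 libraries. Points are libraries, lines are group means, and all genes, CELF2 included, share the same log axis. For every gene the 3 knockdown points lie above the 3 scramble points, and in HNRNPA2B1 and SYNCRIP scramble replicate 3 lies well below the other 2.

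SYNCRIP encodes hnRNP Q, an RNA-binding protein that acts in splicing, mRNA stability and translation, and RSEM gave it a shorter mean transcript in the knockdown. RSEM reports for each gene a length that is the mean of its transcripts weighted by their estimated abundance, so this value moves when the mixture of transcripts moves. The files list 7 SYNCRIP transcripts, all on chromosome 6. All 7 matched GENCODE 29 (GRCh38) transcripts of 3 lengths: 6449 bases (3 accessions), 6764 bases (2) and 3023 bases (2). The 6449-base form has a 3′ untranslated region of 4553 bases and the 3023-base form one of 650 bases. The forms part inside the coding sequence, shown here because reads past this point tell them apart. Each line starts with 30 shared coding bases in lower case and goes on, in capitals, with 39 bases that follow the parting point in that form, read from GENCODE 29 in GRCh38 on the minus strand.
SYNCRIP long form: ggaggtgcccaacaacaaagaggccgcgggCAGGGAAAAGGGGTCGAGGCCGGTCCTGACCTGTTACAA
SYNCRIP short form: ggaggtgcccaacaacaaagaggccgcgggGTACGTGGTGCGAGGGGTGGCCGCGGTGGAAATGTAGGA
The long form (6449 bases) runs from chr6:85612885-85615010 across an intron and has 39 coding bases of its own before its stop. The short form (3023 bases) reads on without a break at chr6:85614942-85615010 and has 222 coding bases of its own. Of the 39 positions in capitals, 12 are identical between the forms.

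SYNCRIP's RSEM length was 5007.86, 4997.45 and 4966.9 bases in scramble replicates 1 to 3 and 4443.7, 4488.26 and 4507.05 bases in the knockdown replicates. Scramble replicate 3 was close to the other 2, and the groups were far apart. The mean went from 4990.7 ± 21.3 (SD) to 4479.7 ± 32.5 bases and so fell by 10.2%, a log2 difference of -0.156 ± 0.0065 (SE; limma, adjusted p = 0.0111). It was 1 of 8 genes called among 7518 with a varying length (0.106%), and 7 of those 8 were shorter. Without scramble replicate 3 the difference was -0.159 (adjusted p = 0.0490). Leaving out scramble replicate 1 (adjusted p = 0.114), scramble replicate 2 (0.0893) or knockdown replicate 2 (0.0703) ended the call, with log2 differences of -0.153, -0.155 and -0.157. An exact permutation test of the 3 against 3 lengths gave a two-sided p of 0.1, the smallest it allows. Groups of 3 that do not overlap always give this value, so the test adds no support. SYNCRIP's length was singled out with earlier results of these data known, so its p-values are given as a description. The annotation behind the lengths in the files is not given in the sources used here, and no share of each form was computed.

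SYNCRIP's count did not pass with all 6 libraries. It was at 148, 140.4 and 66.1 CPM in scramble and at 165, 174 and 171 in knockdown. Scramble replicate 3 was below the other 2 by more than the gap between those 2 and the knockdown libraries. The log2 fold change was 0.52 ± 0.27 (adjusted p = 0.272) with all 6 libraries. It was 0.23 without scramble replicate 3 and 0.35 with the GC and length correction, and passed in both. HNRNPR, its closest paralog, was at 0.35 ± 0.27 (adjusted p = 0.480) and at 0.06 without scramble replicate 3, and passed in neither.

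No other member's length passed the test. Of 38 members with a length that could be tested, SYNCRIP was the 1 called, and 9 (23.7%) had groups that did not overlap, against 12.7% of all genes. At an unadjusted p under 0.05 in the limma fit there were 8, for which no count over all genes was made. The median size of the log2 difference was 0.0026 for members and 0.0051 for all genes. NOVA1, at a low count, had the largest difference in size, from 2510.1 ± 293 to 2897.5 ± 216 bases (SD), 15.4% longer, with groups that overlapped (limma adjusted p = 0.756). Among members whose groups did not overlap SRSF2 came after SYNCRIP in size, at 2668.18, 2642.36 and 2605.28 bases in scramble and 2507.13, 2501.79 and 2539.35 in knockdown. That is 4.64% shorter (log2 difference -0.069; limma adjusted p = 0.186), which did not pass. Its 3 annotated transcripts share a coding sequence of 663 bases and differ in 3′ untranslated regions of 520, 1047 and 2046 bases. CELF2 had the same length, 8005 bases, in all 6 libraries. Among 24 genes known as splicing targets of these families, limma called 0 lengths as changed. EPB41L5, NUMB and BCL2L1 had an unadjusted p under 0.05 in that limma fit. A gene length does not show single exons, so exon use was not measured.

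**Figure D4:**
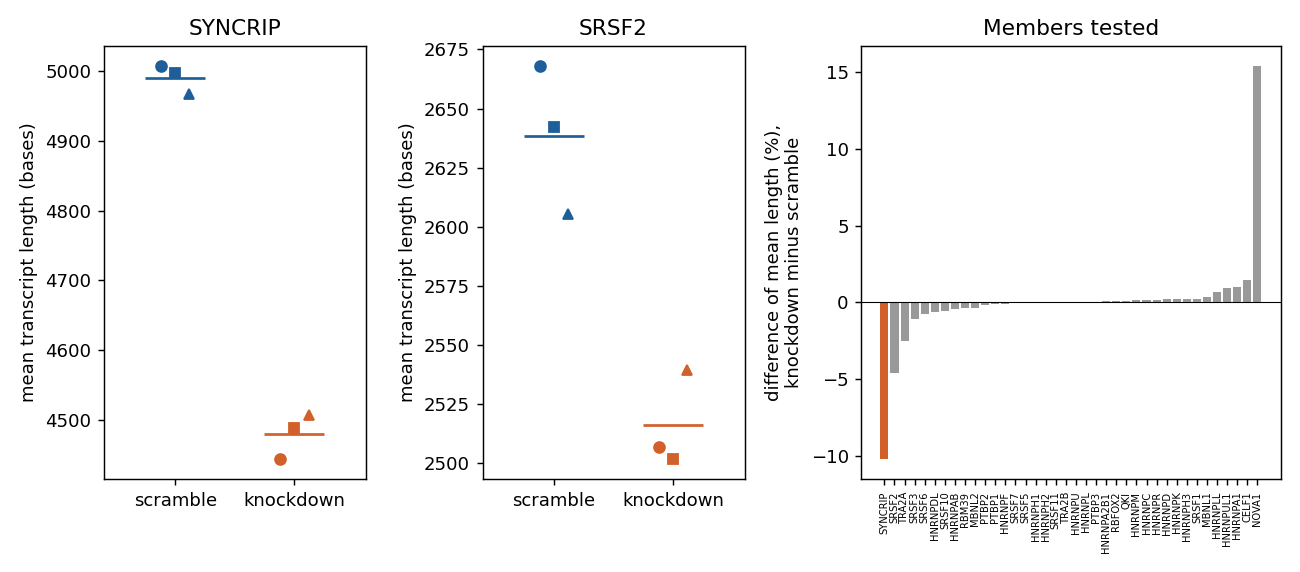
RSEM gene length in bases in each library for SYNCRIP and SRSF2; points are libraries, lines are group means, and the axes do not start at 0. SYNCRIP is near 4990.7 bases in scramble and 4479.7 in knockdown, with scramble replicate 3 beside the other 2.

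PTBP proteins bind pyrimidine runs and repress neuronal exons. With all 6 libraries edgeR, DESeq2 and limma-voom called 0 of the 3. By edgeR 1 was at an unadjusted p under 0.05, where 3763 of all 14812 genes were. PTBP1, the widespread form, was at log2 0.10 and, without scramble replicate 3, was called higher at 0.31. PTBP2, the neuronal form, was at 0.65 ± 0.27 (adjusted p = 0.160), with groups that did not overlap at 8.05 ± 2.97 and 12.7 ± 0.743 CPM (SD). It was called higher at 0.38 without scramble replicate 3. PTBP3 went the other way, at -0.25 with all 6 libraries and, called lower, at -0.57 without that library.

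CELF2 had the largest difference of the 48 genes. This protein binds UG-rich RNA in the nucleus and cytoplasm and is best known from brain, heart and T cells. In the rounded RSEM estimates it had 2, 1 and 1 counts in the scramble libraries and 105, 119 and 92 in the knockdown libraries. That is 0.186, 0.0928 and 0.0968 CPM against 10.5, 11.9 and 9.14 CPM. The scramble libraries held 4 counts in all and the knockdown libraries 316, a ratio of 80.3 with an exact 95% interval of 31.1 to 297, which covers counting error only. The fitted log2 fold change was 6.26 ± 0.33 (SE), with an edgeR adjusted p of 7.4e-06. CELF2 entered the test only through its counts in the knockdown libraries, and its level was singled out with earlier results of these data known. Its p-values are therefore given as a description. A fitted value near 0 counts depends on the prior count, and it was 6.12 without scramble replicate 3 and from 5.97 to 6.61 over the 14 alternatives, with adjusted p between 1.9e-14 and 9.5e-05. An exact permutation test on the CPM gave a two-sided p of 0.1, the smallest possible, which groups of 3 without overlap always give, so it adds no support. In FPKM CELF2 went from 0.0133 to 1.27, from 47th to 44th of the 48 genes, so it remained among the least abundant members.

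Lists of markers of other cell types are given beside this result. The neuron list summed to 177 to 220.1 CPM in scramble and 183.3 to 193 in knockdown, with 6 of 9 genes at 1 CPM or more and STMN2 and GAP43 listed in no library. TUBB3 (81.3 and 102 CPM on average) and RBFOX3 (74.5 and 29.9 CPM) made up most of that sum. Of the 6 neuron genes tested, SNAP25 (log2 1.11, edgeR adjusted p = 0.00421) and NEFL (log2 1.32, adjusted p = 0.00364) were higher, and SYT1 (log2 -1.50, adjusted p = 0.0324) and RBFOX3 (log2 -1.32, adjusted p = 0.00252) lower. The leukocyte list summed to 55.7 to 65.4 and 64.4 to 73.0 CPM, with 4 genes at 1 CPM or more and CD3E listed in no library. Alveolar type 2 genes summed to 9.94 to 10.7 and 5.70 to 6.66 CPM, fibroblast and muscle genes to 49.7 to 63.7 and 33.0 to 36.1, and endothelial genes to 2.81 to 4.18 and 3.40 to 4.07. Single genes made up much of these sums. Of the 2 alveolar genes tested, LAMP3 was lower (log2 -1.51, edgeR adjusted p = 0.00126) and SFTPB was not called (log2 0.21). Of the 2 fibroblast and muscle genes tested, COL1A1 was lower, from 41.1 to 24.4 CPM (edgeR adjusted p = 0.0191), and ACTA2 was not called. CD68 (40.95 and 50.6 CPM on average) made up most of the leukocyte sum, and no leukocyte or endothelial gene was called. The part of these lists in the CELF2 result was not tested.

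The other tested CELF and MBNL members did not pass with all 6 libraries. CELF1, its ubiquitous paralog that destabilises mRNAs with GU-rich 3′ ends, had 190 ± 10.4 CPM (SD) in scramble and 166 ± 9.44 in knockdown. Its groups did not overlap, at a log2 fold change of -0.19 (adjusted p = 0.454), and it was called lower at -0.23 without scramble replicate 3. MBNL2, a muscleblind protein that opposes CELF proteins at shared exons, was at 58.3, 61.5 and 26.9 CPM in scramble and at 32.4, 32.25 and 31.4 in knockdown. Scramble replicate 3 was below the knockdown libraries and the other 2 well above them. The log2 fold change was -0.61 ± 0.28 (adjusted p = 0.212) with all 6 libraries and -0.90 without scramble replicate 3, where it passed. With the GC and length correction, which keeps that library, it was -0.77 and passed. MBNL1 was at 0.05 and -0.29 in the same 2 fits and was called lower in the second. MBNL3 had 3 counts in all scramble libraries and 6 in all knockdown libraries. In a single library 3 counts equal up to 0.293 CPM, and no fold is given.

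RBFOX2, QKI and ELAVL1 had lower means in the knockdown. RBFOX2, which binds GCAUG and sets exons in epithelial and mesenchymal cells, was at 183, 184.5 and 143 CPM in scramble and at 126, 128 and 128 in knockdown. All scramble libraries were above all knockdown libraries. The log2 fold change was -0.42 ± 0.16 (adjusted p = 0.126) with all 6 libraries and -0.53 without scramble replicate 3, where it passed. ELAVL1, the AU-rich element binding protein HuR, was at -0.32 (adjusted p = 0.294), with groups that did not overlap, and passed at -0.15 without scramble replicate 3. QKI, a KH-domain protein of circular RNA and myelin splicing, was at -0.19 (adjusted p = 0.730) with overlapping groups and passed at -0.47 in that fit. NOVA1, a neuronal regulator, was at 6.03 ± 1.499 and 6.58 ± 0.252 CPM (SD) and passed in neither fit. NOVA2 had 11 counts in all scramble libraries and 3 in all knockdown libraries, a ratio of scramble to knockdown of 3.61 with an exact 95% interval of 0.953 to 20.1.

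Both ESRP genes were low. ESRP2 was at 5.39, 4.18 and 4.36 CPM in scramble and 3.10, 2.90 and 3.87 in knockdown. The groups did not overlap, but the log2 fold change of -0.49 ± 0.22 did not pass (edgeR adjusted p = 0.201), nor did -0.54 without scramble replicate 3 (adjusted p = 0.0561, the lowest of its 14 alternatives, which reached 0.509). ESRP1 had 45 counts in all scramble libraries and 11 in all knockdown libraries, 1.41 ± 0.462 and 0.365 ± 0.114 CPM (SD). The ratio of scramble to knockdown was 4.02, with an exact 95% interval of 2.05 to 8.63 that covers counting error only. ESRP1 was too low for the test with all 6 libraries. With no filter on low counts its log2 fold change was -1.91 (edgeR adjusted p = 0.0241), and without scramble replicate 3, where it entered the test only through the 2 scramble libraries in which it is highest, it was -2.16 (adjusted p = 5.6e-04).

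The rest of the splicing machinery held few calls in the same test. Of 113 tested genes in 6 further lists, 2 were higher and 3 lower, where 5.89% and 5.64% of all genes were, and the median log2 fold change was 0.12. In the fit without scramble replicate 3, 51 of 114 were higher and 19 lower, where 25.7% and 23.8% of all genes were. The 18 SR-related and nuclear speckle genes had 0 calls by edgeR, DESeq2 or limma-voom. By edgeR 4 were at an unadjusted p under 0.05, where 3763 of all 14812 genes were. For 10 of the 18 (55.6%) all knockdown libraries lay above all scramble libraries, against 18.4% of all genes. Without scramble replicate 3, 72.2% were called higher, against 25.7% of all genes. The 9 genes of SR protein kinases and their phosphatase and importer had 0 calls by these 3 tools and 0 at an unadjusted p under 0.05. Of 22 other hnRNP-like genes, edgeR and limma-voom called 0 and DESeq2 called 1, with 4 at an unadjusted p under 0.05. Of 25 U1, tri-snRNP and Sm genes, all 3 tools called 0, with 5 at an unadjusted p under 0.05. Of 19 U2 genes 1 passed: SNRPA1, the U2 A′ protein, rose from 32.7 ± 2.00 to 51.8 ± 1.45 CPM (SD; log2 0.66, adjusted p = 0.0197; 0.63 without scramble replicate 3).

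The other tissue-type regulators held the remaining calls, 1 higher and 3 lower of 20 tested. RBFOX3, the neuronal RBFOX protein also known as NeuN, fell from 74.5 ± 16.3 to 29.9 ± 2.58 CPM (SD), a log2 fold change of -1.32 (adjusted p = 0.00252); it is also 1 of the 9 neuron markers. SRRM3, a regulator of neuronal microexons, fell from 6.10 ± 0.777 to 3.23 ± 0.812 CPM (log2 -0.92, adjusted p = 0.0358). ZFP36L1, which binds AU-rich elements and promotes mRNA decay, fell from 172 ± 19.7 to 111 ± 3.16 CPM (log2 -0.64, adjusted p = 0.0236). CELF6 was at 0.909 ± 0.188 and 2.06 ± 0.229 CPM (log2 1.17, adjusted p = 0.0306) and, like CELF2, had enough counts to be tested only through the knockdown libraries. Without scramble replicate 3 the log2 fold changes were -1.12 for RBFOX3, -0.81 for SRRM3, -0.54 for ZFP36L1 and 1.14 for CELF6, and all 4 passed. RBFOX1, ELAVL4 and KHDRBS2 were listed in no library.

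The difference between scramble replicate 3 and the other 2 scramble libraries followed the GC content of the members' transcripts. Relative to the mean of replicates 1 and 2, log2 CPM in scramble replicate 3 was lower for 32 of 45 members, with a median of -0.36. It was lower for 6657 of all 14812 genes, with a median of 0.14. Across the 44 members with a GC value, Pearson's r between GC content and this shift was 0.749 and Spearman's rho 0.759, given as a description; across 14231 genes they were 0.698 and 0.734. These points share the same 3 libraries and genes are not independent replicates. For the 26 members with a GC content under 45% the median shift was -1.03 and 25 were below 0. For the other 18 it was 0.22 and 6 were below 0. The same split over all genes gave a median of -0.84 under 45% GC, with 4164 of 4752 below 0. For the other 9479 genes it was 0.41, with 2154 below 0. The family medians of the shift ranged from -1.12 for SYNCRIP and HNRNPR to 0.02 for the A/B, C and D hnRNPs, with SR proteins at -0.19. They did not follow the families' median GC content in strict order. PTBP genes, with the lowest GC content (37.3%), were at -1.04. The K, L, M and U hnRNPs (48.6%) were at -0.08, below the A/B, C and D hnRNPs (45.8%). The source of this shift was not tested.

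**Figure D5:**
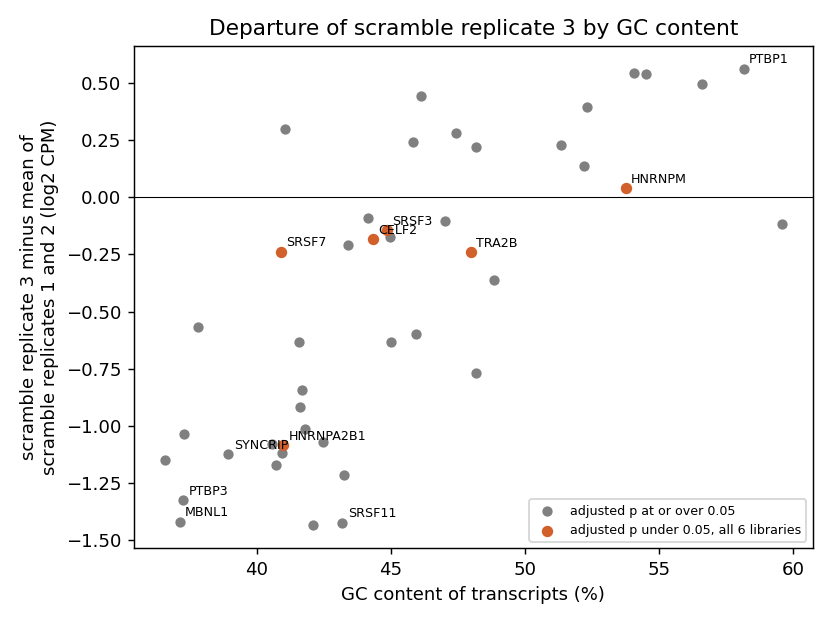
Log2 CPM of scramble replicate 3 minus the mean of scramble replicates 1 and 2, against GC content of the transcripts in percent; each point is 1 of 44 members. Members under 45% GC lie mostly below 0, with a median of -1.03.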

How the data were processed

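RNA of 3 scramble and 3 C19orf12 knockdown libraries of A549 cells was sequenced after oligo-dT capture. The authors deposited RSEM gene tables with expected counts, FPKM and a gene length per library, per the file headers; BWA, Bowtie2, RSEM and hg19 are named in the submitters' processing notes, with no version in those notes. A gene absent from a file was set to 0 counts. Of the gene IDs, 20727 matched a symbol and 97 did not (0.147% of counts). Estimated counts, as deposited by the authors, were rounded and tested with edgeR 4.0.16 in R 4.3.3 (filterByExpr, minimum count 10 and total 15; TMM scaling; quasi-likelihood test; Benjamini-Hochberg over all genes, adjusted p under 0.05). CPM values use the same scaling. FPKM values are the authors' own and were used untested to compare genes. The log2 of the length was tested with limma 3.58.1 (trend, robust). Intervals of summed counts are exact at 95% and cover counting error only. Depth was 10229890 to 10647587 counts, at which 3 counts equal up to 0.293 CPM.

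Named with values in every library were SYNCRIP, CELF2, every member called with all 6 libraries or for its length, and C19orf12; SRSF2, MBNL2, RBFOX2 and ESRP2 were added after their values were seen. Of every other list, up to 4 called genes were named. Outside that rule, FPKM in each scramble library was given for HNRNPC, HNRNPK, HNRNPL, HNRNPH1 and SRSF9. EPB41L5, NUMB, BCL2L1 and some marker genes were named without a call. The members and lists were chosen with earlier results of these data known. Alternatives were RLE and upper-quartile scaling, other count filters, DESeq2 1.42.0, limma-voom, a replicate block, each library left out, and, added after the data were seen, a spline in GC content and length with 5 degrees of freedom each. The scripts were tested on simulated data.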

Additional observations from a re-analysis of the deposited data

How the results depend on the processing

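Against 6 members called with all 6 libraries, limma-voom and the filter at 1 CPM called the same 6. RLE scaling called 6, with SRSF2 (adjusted p = 0.0499) in place of HNRNPA2B1 (0.0518), and the fit without a filter 6, with ESRP1 (lower) in place of SRSF3. DESeq2 called HNRNPH2 as a 7th, and upper-quartile scaling called 5, without SRSF3. The GC and length correction gave 25 members, 4858 of all genes and 40 other splicing genes, against 6, 1708 and 5. Leaving out 1 library gave 1 to 38 members, 729 to 7439 of all genes and 1 to 70 other splicing genes, the highest in each case without scramble replicate 3, and C19orf12 between -1.08 and -0.73. For lengths, limma without the robust option called 18 of all genes against 8, and leaving out 1 library 0 to 11, with 0 to 1 members. The replicate numbers did not pair the libraries: deviations of same-numbered libraries correlated at -0.024, -0.018 and -0.023. With the replicate block, 4 members were called: HNRNPA2B1 and CELF2 of the 6, and TRA2A and HNRNPH2, while SRSF3 (0.111), SRSF7 (0.0502), TRA2B (0.0513) and HNRNPM (0.0565) did not pass. The block called 1654 of all genes and 3 other splicing genes, and 2 lengths of all genes and 0 of members. The sign of a log2 fold change turned with the GC and length correction for RBM39 (-0.14), HNRNPA0 (-0.19), HNRNPH3 (-0.0737), HNRNPUL1 (0.022), MBNL1 (-0.0887) and NOVA1 (-0.0632). RBM39 also turned with RLE scaling (-0.0023), DESeq2 (-0.0023) and upper-quartile scaling (-0.0246). Leaving out 1 library turned the sign for SRSF9 (-0.21 to 0.0379), RBM39 (-0.27 to 0.17), HNRNPDL (-0.0736 to 0.27), HNRNPH3 (-0.19 to 0.26), HNRNPL (-0.21 to 0.10), HNRNPUL1 (-0.15 to 0.14), PTBP1 (-0.0056 to 0.31), MBNL1 (-0.29 to 0.27) and NOVA1 (-0.0622 to 0.27). None of these 10 genes was called with all 6 libraries, and the cause was not tested. Depth limits ESRP1, NOVA2 and MBNL3, whose counts were too low for the test.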
